A study of Mus musculus with 6 samples.

Results

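The genes described here handle vitamin A in the absorptive epithelium of the small intestine. They are the 10 rows Rbp2, Lrat, Bco1, Isx, Rdh7, Adh1, Aldh1a1, Aldh1a7, Dhrs3 and Rarb of a table that lists 21397 genes, chosen by name for their place in the pathway. The choice was made with earlier results of these data known. RNA was sequenced from small intestinal organoids, which are epithelial structures grown from crypts in a gel. The study also calls them ileal organoids, and they were derived from Fpr2f/f mice. These mice carry a floxed allele of the receptor gene and no Cre is given for them in the labels. The 3 Control libraries received 0.1% DMSO alone. The 3 MMK-1 libraries received the same 0.1% DMSO with MMK-1, a peptide agonist of formyl peptide receptor 2. RNA was taken on day 5 in both groups. The sources disagree on the dose of MMK-1, since the protocol gives 1 µM and the treatment label of the same samples gives 1 mM, which would be 1000 µM. The comparison asks which transcripts of the pathway differ after exposure to the agonist. The study describes each sample as organoids pooled from 3 mice, with 3 samples in each group, and whether the samples came from different mice is not given, so p-values measure only the spread between these libraries.

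Dietary vitamin A reaches the enterocyte as retinol or as carotenoids such as beta-carotene, which the enzyme encoded by Bco1 cleaves into retinal. Retinol is held in the cytoplasm by the binding protein Rbp2 and esterified by Lrat, and the esters leave the cell packed in chylomicrons. Alcohol and short-chain dehydrogenases interconvert retinol and retinal, retinaldehyde dehydrogenases make retinoic acid from retinal, and retinoic acid acts through nuclear receptors such as Rarb. In the mouse intestine Isx, a homeobox repressor that retinoic acid induces, is known to limit Bco1 and Scarb1.

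The libraries held between 35512739 and 37537463 fragments, computed from the deposited values. Levels are given in FPKM, fragments scaled to the length of the gene and to the size of the library. Tests compared log2(FPKM + 1) between the groups in the 10551 genes that averaged at least 1 FPKM. MMK-1 replicate 3 stood apart, with a chi-square per degree of freedom of 36.6 and 31.3 against the other MMK-1 libraries, where all other pairs within a group lay between 2.83 and 4.97. The median log2 difference of all genes tested was 0.13 and became -0.0047 after upper-quartile scaling, a setting under which Lrat and, among other retinoid genes, Rara and Rdh11 were called lower and Nrip1 was no longer called higher. Of the 14 enterocyte markers, all tested, 13 were lower with MMK-1, where 24.7% of all genes were. Fabp1 was called higher, a call lost with upper-quartile scaling. The summed level of the 14 went from 10160 to 10270 FPKM in control to 5592 to 6013 FPKM with MMK-1. All 5 stem cell markers and all 5 tested Paneth cell markers were higher, as were 5 of 7 goblet markers with 2 lower, and 3 of 6 enteroendocrine markers with 3 not called, beside 48.5% of all genes tested. With upper-quartile scaling 3 goblet markers were higher, Agr2 and Clca1 being lost, and of the enteroendocrine markers 2 were higher and 1, Gip, was lower, Chgb being lost. None of 5 tuft markers was tested. Slc26a3, the 1 gene tested from a list of hepatocyte and colonocyte markers, was lower. Aqp8, a colonocyte marker of that list, was at most 0.254 FPKM in any library. Whether the RNA of Slc26a3 came from colonocytes was not tested. Leukocyte markers summed to 5.38 to 6.19 FPKM in control and 1.77 to 2.89 FPKM with MMK-1, with Itgax at 0 fragments in all 6 libraries, Ptprc at 0 to 3, and Cd68 and Itgam, the 2 tested, both lower. Itgam averaged 0.938 FPKM with MMK-1 and passed the filter only through its control level of 2.36 FPKM. Stromal and endothelial markers summed to at most 0.383 FPKM in any library.

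The retinoid genes of the absorptive pathway were lower in MMK-1 organoids. Of the 10 genes, 8 were tested, each of them above 1 FPKM in all 6 libraries, and 7 of these were lower in limma, called where the Benjamini-Hochberg adjusted p over all genes tested did not exceed 0.05. Rbp2, Bco1, Adh1, Rdh7, Aldh1a1, Aldh1a7 and Dhrs3 were the 7, Lrat was not called, and 0 were higher. Among all genes tested, 24.7% were lower and 48.5% were higher by the same rule. At a fold of at least 2 with an unadjusted p of at most 0.05, 6 of the 8 were lower (all but Dhrs3 and Lrat) and 0 higher, where 3.65% of all genes were lower and 3.39% higher. In the same 7 genes every MMK-1 library lay below every control library, which held for 26.3% of all genes. Because the genes were chosen with earlier results of these data known, these shares describe the set and do not test it. The median log2 fold change of the 8 was -1.30, beside 0.13 for all genes tested. Since this is RNA from whole organoids, fewer enterocytes and less RNA per enterocyte cannot be told apart, and the part that the differences in enterocyte and other cell type markers had in these values was not tested. In each of the 7 genes MMK-1 replicate 3 was the highest of the MMK-1 libraries, and without it the counts of 7 and 6 were the same.

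**Figure D1:**
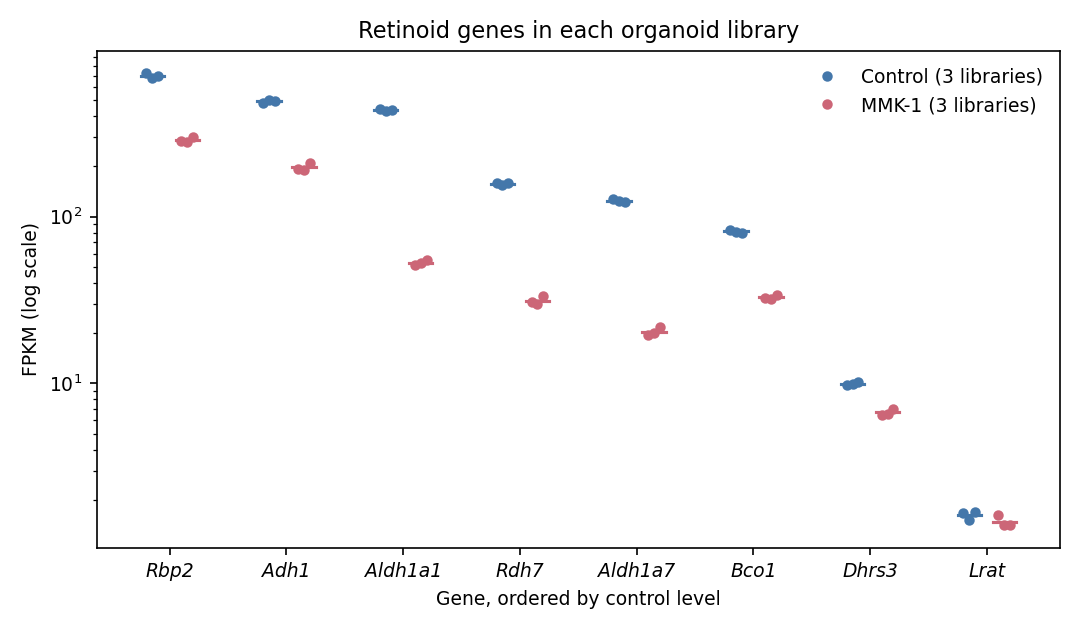
FPKM on a log axis of the 8 tested retinoid genes in each library, 3 Control (blue) and 3 MMK-1 (red), with a short line at each group mean. Control and MMK-1 points are separate for 7 genes and overlap for Lrat at 1.41 to 1.69 FPKM. Isx, at 0 in all libraries, and Rarb, above 0 only in MMK-1 replicate 1, are not plotted.

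Of the genes that bind, cleave or esterify vitamin A and its precursors, Rbp2 and Bco1 fell to near 41% of control, whereas Lrat stood at 91.3% and was not called. Rbp2 encodes cellular retinol-binding protein 2, the carrier of retinol and retinal in the absorptive cell, and spans chr9:98486115-98509781 on the plus strand (GRCm38, GENCODE vM21). It was the most abundant of the 10 per length, at 722, 676 and 695 FPKM in Control replicates 1 to 3 and at 284, 278 and 298 FPKM in MMK-1 replicates 1 to 3. The groups did not overlap, and the mean went from 698 ± 23.2 to 287 ± 10.4 FPKM (SD, n = 3 each), a 2.43-fold lower level. The log2 fold change was -1.28 with a standard error of 0.0435 (limma with Benjamini-Hochberg adjustment, adjusted p = 4.93e-08).

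Bco1, which encodes beta-carotene 15,15'-oxygenase, the enzyme that splits provitamin A carotenoids, spans chr8:117095854-117133720 on the plus strand. Its level was 83.0, 81.1 and 80.1 FPKM in control and 32.4, 32.1 and 33.9 FPKM with MMK-1. Every MMK-1 library was below every control library by more than the spread within either group, at 40.3% of the control mean (log2 fold change -1.29, standard error 0.0401, limma with Benjamini-Hochberg adjustment, adjusted p = 3.03e-08). The proportion of Bco1 to Rbp2 within a library was not separated between the groups. The ratio of Bco1 to Rbp2 FPKM was 0.115 to 0.120 in control and 0.114 to 0.115 with MMK-1, overlapping ranges whose log2 difference was -0.03 with a standard error of 0.0209 (exact two-sided permutation p = 0.3, 3 against 3). Such ratios do not depend on the scaling between libraries, and with 3 against 3 the smallest exact p is 0.1.

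The start regions of Rbp2 and Bco1 are shown because both hold the letters TGACCT within 60 bases before their annotated starts. These letters are the reverse strand of AGGTCA, the core to which many nuclear receptors bind. The windows run from 100 bases before to 50 bases after the start on GRCm38.p6 (RefSeq promoter table), chr9:98490437-98490586 on the plus strand for Rbp2 and chr8:117095765-117095914 on the plus strand for Bco1, with the matched letters in capitals.
Rbp2: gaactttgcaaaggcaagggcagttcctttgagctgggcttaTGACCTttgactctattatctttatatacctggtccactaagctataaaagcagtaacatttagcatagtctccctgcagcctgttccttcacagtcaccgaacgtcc
Bco1: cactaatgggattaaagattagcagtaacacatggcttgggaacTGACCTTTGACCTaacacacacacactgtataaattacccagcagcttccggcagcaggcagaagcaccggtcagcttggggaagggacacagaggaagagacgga
The match in Rbp2 begins 58 bases before the start. In Bco1 the copies begin 56 and 49 bases before the start, lie 1 base apart and together form a direct repeat of the type DR1, a pattern searched for only after this promoter had been seen. Over all 32851 promoters of 300 bases in the table, read on both strands, AGGTCA was found in 16.3% and DR1 in 0.222%. Of the 14 promoters of the 10 genes, 3 held AGGTCA (Rbp2, Bco1 and Rdh7) and only that of Bco1 held DR1. TTTATG, a core of CDX type, was in 1 promoter each of Bco1 and Rdh7 and in 11.9% of all, while CAAAGTCCA, of HNF4 type, was in 0 of the 14 and 0.475% of all. These are matches of letters and say nothing of binding.

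Lrat, which encodes lecithin retinol acyltransferase, the enzyme that esterifies retinol held by Rbp2, spans chr3:82892579-82903973 on the minus strand and was a low transcript. It stood at 1.66, 1.52 and 1.69 FPKM in control and 1.62, 1.42 and 1.41 FPKM with MMK-1, from 272 to 337 fragments per library. The groups overlapped, and the log2 fold change was -0.08 with a standard error of 0.063 (limma with Benjamini-Hochberg adjustment, adjusted p = 0.271). Upper-quartile and median-of-ratios scaling gave log2 fold changes of -0.18 and -0.18, with limma and Benjamini-Hochberg adjusted p of 0.0317 and 0.0324, so the call for Lrat depends on the scaling. Relative to Rbp2 within the same library, Lrat was higher with MMK-1, with a ratio of 0.00225 to 0.00243 in control and 0.00472 to 0.00572 with MMK-1 (log2 difference 1.15, standard error 0.0862, exact two-sided permutation p = 0.1, the smallest possible). Because of the added 1 FPKM, log2 fold changes of genes as low as Lrat are smaller than the change in FPKM.

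Isx spans chr8:74873173-74893506 on the plus strand and was listed at 0 in all 6 libraries. A count of 0 allows up to 3 fragments, which for an exon length of 1793 bases (GENCODE) would be 0.0446 to 0.0471 FPKM, counting error only. No difference could be detected for Isx, and the annotation behind its 0 is not given. Bco1, whose promoter Isx is known to repress, was above 30 FPKM in every library. Any link of Isx to the levels of Bco1 or Scarb1 was not tested. Scarb1, the scavenger receptor that takes up carotenoids, stood at 114, 116 and 116 FPKM in control and 66.6, 67.4 and 74.8 FPKM with MMK-1 (log2 fold change -0.72, limma with Benjamini-Hochberg adjustment, adjusted p = 2.8e-06).

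The genes that interconvert retinol and retinal fell by different amounts. Adh1, a cytosolic alcohol dehydrogenase that oxidises retinol (chr3:138260991-138290698, plus strand), was at 481, 498 and 496 FPKM in control and 193, 189 and 211 FPKM with MMK-1. Its groups did not overlap, and its level of 40.2% of control (log2 fold change -1.31, standard error 0.0477, limma with Benjamini-Hochberg adjustment, adjusted p = 6.95e-08) lay beside those of Rbp2 and Bco1. The ratio of Adh1 to Rbp2 overlapped between the groups, at 0.665 to 0.737 in control and 0.681 to 0.706 with MMK-1 (log2 difference -0.03, standard error 0.0471, exact two-sided permutation p = 0.6).

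Rdh7, a microsomal short-chain retinol dehydrogenase (chr10:127884028-127888817, minus strand), was at 159, 155 and 159 FPKM in control and 30.8, 29.8 and 33.2 FPKM with MMK-1. This 5.04-fold lower level (log2 fold change -2.30, standard error 0.0469, limma with Benjamini-Hochberg adjustment, adjusted p = 3.57e-09) was the largest among the dehydrogenases of retinol in the set of 10. The drop exceeded that of Rbp2 in the same libraries, since the ratio of Rdh7 to Rbp2 went from 0.220 to 0.229 in control to 0.107 to 0.111 with MMK-1, without overlap (log2 difference -1.05, standard error 0.0261, exact two-sided permutation p = 0.1). Rdh7 belongs to a cluster of near copies. Its longest coding transcript was 80.5% to 85.1% identical to those of Rdh9, Rdh16f2, Rdh1, Rdh16 and Rdh19 over the aligned bases, with shared runs of up to 133 bases, so some fragments could have been assigned to a neighbour. Rdh9 went from 1.67 ± 0.0407 to 0.572 ± 0.136 FPKM (SD, n = 3 each), and Rdh16f2 from 104, 105 and 97 fragments to 3, 8 and 1, both called lower and both far below Rdh7 in level.

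Dhrs3, which reduces retinal back to retinol and is known to be induced by retinoic acid (chr4:144892827-144928209, plus strand), showed the smallest of the called falls among the 10 genes. It was at 9.78, 9.87 and 10.2 FPKM in control and 6.46, 6.56 and 7.05 FPKM with MMK-1. The groups were separate, with MMK-1 at 67.2% of control (log2 fold change -0.51, standard error 0.0487, limma with Benjamini-Hochberg adjustment, adjusted p = 1.96e-05). The fall was 1.49-fold, short of the fold of 2, and it was less than that of Rbp2 in the same libraries (log2 difference of the ratio to Rbp2 0.71, standard error 0.0418, exact two-sided permutation p = 0.1).

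Among the 10 genes, Aldh1a1 and its close copy Aldh1a7 had the largest falls. Aldh1a1, the cytosolic retinaldehyde dehydrogenase 1 that makes retinoic acid from retinal (chr19:20492715-20643465, plus strand), was at 443, 428 and 434 FPKM in control and 51.1, 52.4 and 54.6 FPKM with MMK-1, from 48515 to 50170 fragments in control and 5487 to 6132 with MMK-1. The 8.25-fold lower level (log2 fold change -3.02, standard error 0.0398, limma with Benjamini-Hochberg adjustment, adjusted p = 4.91e-10) ranked 9 among the falls of all 10551 genes tested. In control Aldh1a1 had 0.614 to 0.633 times the FPKM of Rbp2, and with MMK-1 0.180 to 0.188 times, without overlap (log2 difference -1.76, standard error 0.0225, exact two-sided permutation p = 0.1).

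Aldh1a7, which lies near Aldh1a1 on the same chromosome and whose product, despite the likeness, is not known for oxidising retinal (chr19:20692953-20727562, minus strand), was at 128, 123 and 122 FPKM in control and 19.4, 20.1 and 21.8 FPKM with MMK-1. All MMK-1 libraries were again below all controls, 6.10-fold by the means (log2 fold change -2.55, standard error 0.0496, limma with Benjamini-Hochberg adjustment, adjusted p = 2.76e-09), which ranked 26 among the falls. Aldh1a7 fell less than Aldh1a1. The ratio of Aldh1a7 to Aldh1a1 rose from 0.282 to 0.289 in control to 0.380 to 0.399 with MMK-1 (log2 difference 0.43, standard error 0.0245, exact two-sided permutation p = 0.1), and Aldh1a1 made up 77.6% to 78.0% of the summed FPKM of Aldh1a1, Aldh1a2, Aldh1a3 and Aldh1a7 in control and 71.5% to 72.5% with MMK-1. This share is one of transcripts of related sequence, not of a step of the pathway. Aldh1a2 and Aldh1a3, like Aldh1a1, encode retinaldehyde dehydrogenases. Aldh1a2 was above 0 only in Control replicate 1, at 0.0118 FPKM, and Aldh1a3 only in Control replicate 2, at 0.0157 FPKM.

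The start regions of Aldh1a1 and Aldh1a7 are shown because they are near copies as well. The windows run from 90 bases before to 50 bases after the start on GRCm38.p6 (RefSeq promoter table), chr19:20601878-20602017 on the plus strand for the Aldh1a1 start that matches a GENCODE transcript and chr19:20727507-20727646 on the minus strand for Aldh1a7, and capitals mark the bases that differ.
Aldh1a1: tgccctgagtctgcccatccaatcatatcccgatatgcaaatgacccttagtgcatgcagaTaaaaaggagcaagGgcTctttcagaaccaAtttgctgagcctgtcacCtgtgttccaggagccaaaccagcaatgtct
Aldh1a7: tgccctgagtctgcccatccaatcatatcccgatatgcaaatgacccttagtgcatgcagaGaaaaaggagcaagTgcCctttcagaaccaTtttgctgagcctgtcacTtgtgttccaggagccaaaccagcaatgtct
Of the 140 bases, 135 are the same and 5 differ. The longest coding transcripts of the genes were 89.7% identical over 2015 aligned bases, with a longest shared run of 100 bases, so fragments from shared stretches could have been counted for either gene and the ratio between them is uncertain to that extent. Neither start region held any of the motifs searched for.

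Rarb encodes retinoic acid receptor beta, a receptor that is itself a classical target of retinoic acid (chr14:16430839-16819156, minus strand). Its promoter is shown because it carries a retinoic acid response element of the type DR5, direct repeats with 5 bases between them, in the window chr14:16575427-16575576 on the minus strand of GRCm38.p6 (RefSeq promoter table), from 100 bases before to 50 bases after the start, with the element in capitals.
Rarb: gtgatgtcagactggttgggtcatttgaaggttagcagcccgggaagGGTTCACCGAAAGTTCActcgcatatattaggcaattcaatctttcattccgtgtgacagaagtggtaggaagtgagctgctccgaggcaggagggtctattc
The element begins 53 bases before the start and was found in no other promoter of the 10 genes and in 32 of all 32851 promoters, or 0.0974%. The related DR2 was in 0 of the 14 promoters of the 10 genes and in 0.268% of all. Rarb was at 0 in 5 libraries and at 0.0149 FPKM in MMK-1 replicate 1. That value was read as 1 fragment, the smallest count that fits, with a gene length of 1887 bases. At this length 3 fragments would be 0.0424 to 0.0448 FPKM in these libraries. GENCODE lists 5265 exon bases, so the count could be higher and the limit lower. With 1 library above 0, no difference was detectable.

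**Figure D2:**
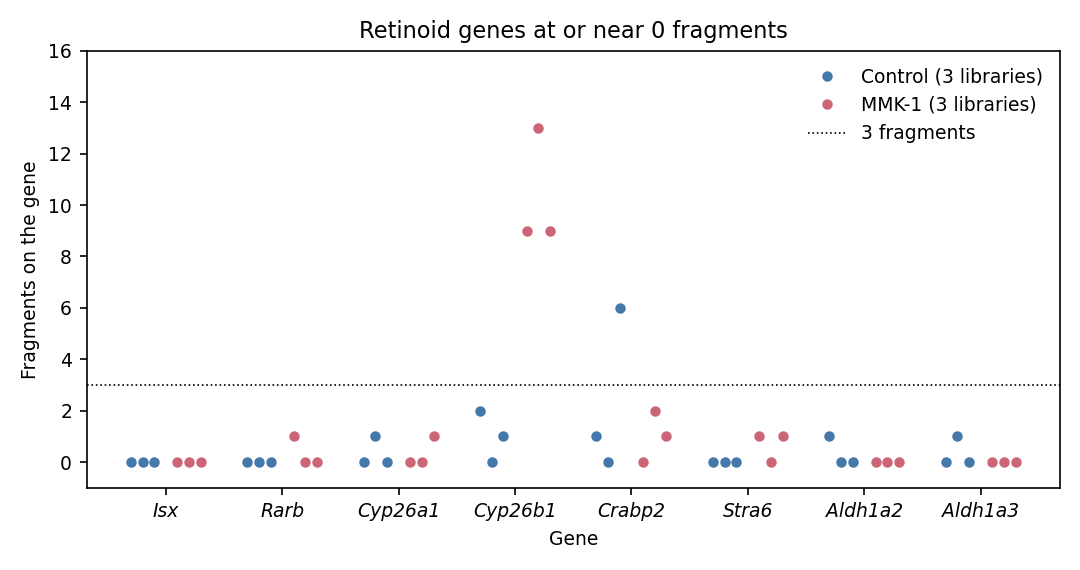
Fragments per library on 8 retinoid genes with few fragments, in 3 Control (blue) and 3 MMK-1 (red) libraries, with the 3 fragments that a count of 0 allows as a dotted line. Isx and Rarb lie at 0 or 1, and Cyp26b1 at 0 to 2 in control and 9 to 13 with MMK-1. Counts are the smallest whole numbers that fit the FPKM values, so those of genes above 0 in few libraries are minimums.

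The other genes of the pathway were taken from lists of 54 genes, of which 50 were in the table and 29 were tested. These lists too were drawn up with earlier results of these data known. Of these 29, 16 were lower, 8 were higher and 5 were not called in limma with Benjamini-Hochberg adjustment, so 55.2% were lower where 24.7% of all genes were, with a median log2 fold change of -0.17. Cd36, Rdh9, Rdh16f2, Rbp7 and Rarg averaged under 1 FPKM in the lower of the groups and passed the filter only through the other.

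All 8 tested genes of carotenoid and retinyl ester handling were lower, where 24.7% of all genes were. Among the 8, Cd36 was tested only because of its level in control. Bco2, the mitochondrial oxygenase that cleaves carotenoids off centre, had the largest fall of the list on the log2(FPKM + 1) scale, from 50.2 ± 0.599 to 13.0 ± 1.12 FPKM (SD, n = 3 each; log2 fold change -1.87, limma with Benjamini-Hochberg adjustment, adjusted p = 3.03e-08). The lipid uptake receptor Cd36 fell by 1.18 on that scale, but in FPKM it fell further than Bco2, to 22.2% of control against 25.9%. The hormone-sensitive lipase Lipe, which can hydrolyse retinyl esters, fell by 1.01 on the log2 scale. Mttp, which loads lipid onto chylomicrons and had the highest level of the list, went from 369 ± 3.24 to 226 ± 0.584 FPKM (SD, n = 3 each), a log2 fold change of -0.71, with Dgat1 at -0.83 and Apob at -0.62.

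Of the 4 tested binding and uptake proteins, 1 was lower and 3 were higher, where 24.7% of all genes were lower and 48.5% higher, and 1 of the 3, Rbp7, was tested only because of its level with MMK-1. Ttr, transthyretin, fell by 0.80 on the log2 scale. Rbp7, a cellular retinol-binding protein, went from 0.840 ± 0.0408 to 2.60 ± 0.519 FPKM, and Fabp5, which can carry retinoic acid, from 15.2 ± 0.147 to 27.5 ± 2.33 FPKM (SD, n = 3 each), with log2 fold changes of 0.96 and 0.81. Stra6l, a retinol-binding protein 4 receptor, was higher by 0.80 on the log2 scale. Rbp2 thus fell while Rbp7, far below it in FPKM, rose.

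Of the 10 other oxidoreductases tested, 6 were lower, 1 was higher and 3 were not called, where 24.7% of all genes were lower and 48.5% higher. Among the 6, Rdh9 and Rdh16f2 were tested only because of their levels in control. Rdh16f2 (-1.54), Adh4 (-1.09) and Rdh5 (-1.01) had the largest falls on the log2 scale, all from control levels under 4 FPKM. Dhrs4, the highest in level, went from 86.1 ± 0.788 to 78.9 ± 3.83 FPKM (SD, n = 3 each; log2 fold change -0.13, limma with Benjamini-Hochberg adjustment, adjusted p = 0.0273), and Rdh13 was higher by 0.51 on the log2 scale. Rdh10, the retinol dehydrogenase needed for retinoic acid in the embryo, was at 12.4, 13.1 and 12.9 FPKM in control and 14.3, 12.5 and 12.4 FPKM with MMK-1, overlapping, with a log2 fold change of 0.02 and a standard error of 0.0606.

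None of the 6 other genes of retinal oxidation and retinoic acid breakdown reached the level tested. Cyp26a1, the hydroxylase that clears retinoic acid and is induced by it, was above 0 only in Control replicate 2 and MMK-1 replicate 3, at 0.0144 and 0.0145 FPKM. Cyp26b1, of the same function, had 2, 0 and 1 fragments in control and 9, 13 and 9 with MMK-1, without overlap. In the fit of every gene above 0 its adjusted p was 0.0162 (limma with Benjamini-Hochberg adjustment), and its level stayed at or under 0.029 FPKM.

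Of the 4 tested retinoid receptors, Rxra was lower, at 26.8 ± 0.230 and 23.5 ± 1.04 FPKM (SD, n = 3 each; log2 fold change -0.18, limma with Benjamini-Hochberg adjustment, adjusted p = 0.00542). Rarg was higher, at 0.860 ± 0.0704 and 1.83 ± 0.129 FPKM (SD, n = 3 each; log2 fold change 0.60, limma with Benjamini-Hochberg adjustment, adjusted p = 3.9e-05). Rara, at 6.05 ± 0.315 and 6.06 ± 0.382 FPKM (SD, n = 3 each), had a log2 fold change of 0.0023 and was not called, but under upper-quartile scaling it was -0.13 (limma with Benjamini-Hochberg adjustment, adjusted p = 0.0493). Of 9 retinoic acid responsive genes in the table, the 10 main genes left out, only Tgm2, Cdx1 and Nrip1 were tested. All 3 were called higher, by 0.35, 0.31 and 0.26 on the log2 scale, where 48.5% of all genes were. The median of all genes was 0.13. Nrip1 was no longer called under upper-quartile scaling (limma with Benjamini-Hochberg adjustment, adjusted p = 0.0985). Dhrs3, which is among the 10 and is also known to be induced by retinoic acid, was called lower, at a log2 fold change of -0.51. Crabp2, a carrier of retinoic acid to its receptors, had 0 to 6 fragments per library.

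**Figure D3:**
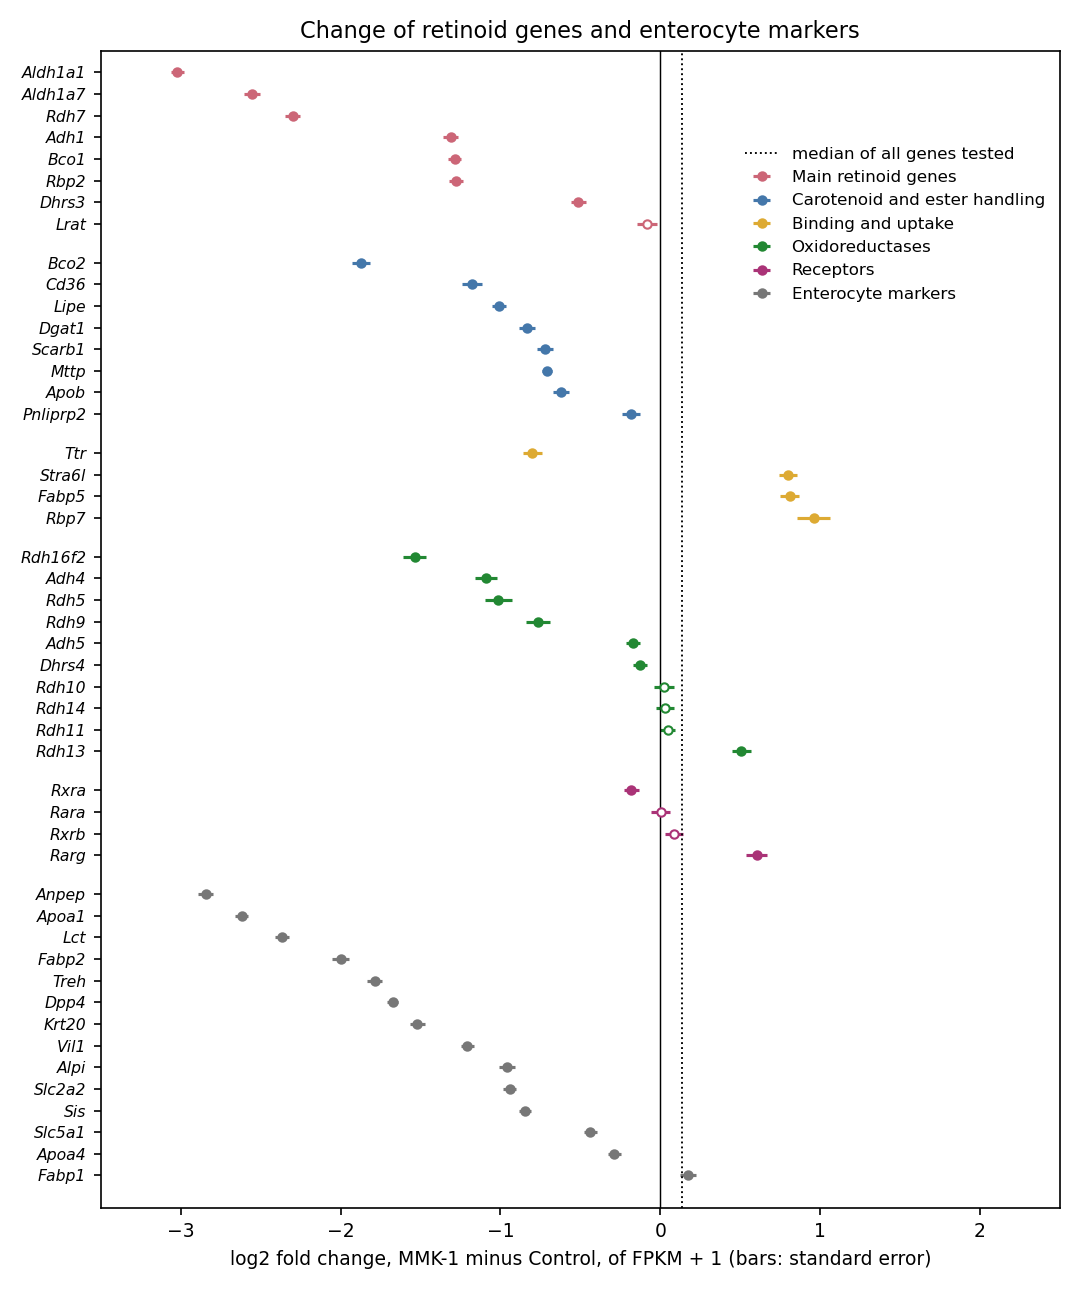
Log2 fold change of FPKM + 1, MMK-1 minus Control, with its standard error, for the 8 tested main retinoid genes, other genes of the pathway by role and 14 enterocyte markers. Filled points passed an adjusted p of 0.05 (limma with Benjamini-Hochberg adjustment); the dotted line is the median of all genes tested, 0.13, and the retinoid genes reach from -3.02 (Aldh1a1) to 0.96 (Rbp7).

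Set beside the enterocyte markers in the same libraries, the retinoid genes spanned much the same range. With MMK-1 the markers stood between 13.8% of control (Anpep, a brush border peptidase) and 113% (Fabp1, a fatty acid-binding protein), with a median log2 fold change of -1.36, where that of the 8 retinoid genes was -1.30. The structural marker Vil1, villin, was at 43.3% of control, close to Rbp2 at 41.1%, Bco1 at 40.3% and Adh1 at 40.2%. Aldh1a1 at 12.1%, Aldh1a7 at 16.4% and Rdh7 at 19.8% lay among the markers that fell most, beside Apoa1 at 16.3% and Lct, lactase, at 18.8%.

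Measured against Vil1 within each library, the genes differed in how far they fell. Vil1 was the only 1 of the 14 enterocyte markers used in this way. With MMK-1 the markers ranged from 13.8% (Anpep) to 113% (Fabp1) of control. Whether a ratio rises or falls therefore depends on the marker chosen. The ratio of Rbp2 to Vil1 was 1.19 to 1.27 in control and 1.15 to 1.21 with MMK-1, which overlapped (log2 difference -0.07, standard error 0.0338, exact two-sided permutation p = 0.2). Bco1 and Adh1 were lower against Vil1 by small amounts, at log2 differences of -0.10 (standard error 0.021) and -0.11 (standard error 0.0339), without overlap. Aldh1a1 went from 0.755 to 0.777 times Vil1 in control to 0.213 to 0.218 times with MMK-1, a log2 difference of -1.84 (standard error 0.0164), followed by Aldh1a7 at -1.40 and Rdh7 at -1.13, while Dhrs3 at 0.63 and Lrat at 1.08 were higher against Vil1. For each of these pairs without overlap the exact two-sided permutation p was 0.1, the smallest that 3 against 3 libraries allow.

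**Figure D4:**
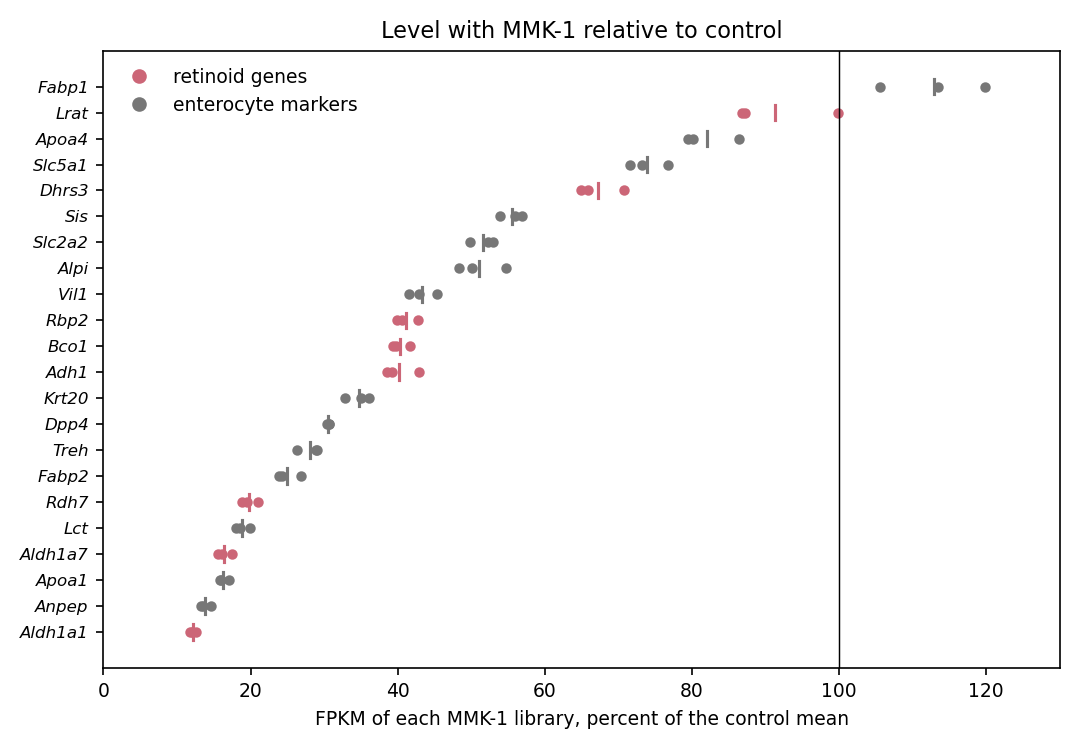
FPKM of each of the 3 MMK-1 libraries as a percent of the control mean for the 8 tested retinoid genes (red) and the 14 enterocyte markers (grey), ordered by the mean, shown as a short line. Aldh1a1 is lowest at 12.1%, Rbp2, Bco1 and Adh1 lie together at 40.2% to 41.1% next to Vil1 at 43.3%, and Lrat lies at 91.3%.

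Together the 10 genes took 0.335% to 0.343% of all fragments in control libraries and 0.0875% to 0.0945% in MMK-1 libraries, with Aldh1a1 giving the most fragments of the 10 in every control library.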

How the data were processed

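RNA-seq of 6 libraries of mouse small intestinal organoids (3 Control, 3 MMK-1, paired-end reads) was used. The deposited values are FPKM per gene, which the authors computed with no stated scaling between libraries; the submitters' processing notes name HISAT2, HTSeq, R 3.2.0, DESeq2 and the build mm10, without roles, and the annotation is not given in the sources used here. Within a library FPKM are whole fragments times a factor, and fragments were computed for all 20676 genes above 0, within 0.002 of a whole number. The smallest counts that fit were taken, so for genes above 0 in few libraries they are minimums. A pseudocount of 1 was added to FPKM before taking log2. Genes averaging 1 FPKM or more, 10551 in all, entered a limma fit (version 3.58.1, R 4.3.3) without covariates, and p-values were adjusted over all of them by the Benjamini-Hochberg method, with a threshold of 0.05. The test was checked on simulated data. Permutation tests of single values were exact and two-sided. Named genes were the 10 genes, the up to 3 largest called changes in each direction and the most abundant gene of each retinoid list, and the best known genes of each step, not all of which are reported here. Of the marker lists, only genes that bear on a result are given singly. The genes and lists were chosen with earlier results of these data known. Promoters (RefSeq, GRCm38.p6) were read for the 10 genes, all matched by symbol; positions come from GENCODE vM21, and transcripts were aligned with Biopython 1.88. Counts of fragments, intervals and limits cover counting error only. Alternatives were other scalings, filters, a pseudocount of 0.1, limma-voom on fragments, TPM, a fold of 1.5, a replicate block and leaving out each library.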

Additional observations from a re-analysis of the deposited data

How the results depend on the processing

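Of the 10 genes, 7 were lower in every setting tried except upper-quartile and median-of-ratios scaling, where 8 were, Lrat being the addition, and 6 were lower at a fold of at least 2 in every setting, with 0 higher. The median log2 fold change of the tested genes was -1.46 with upper-quartile scaling and -1.46 with median-of-ratios scaling against -1.30 as reported, a shift like that of all genes. The count of other retinoid genes called lower was 13 to 16 when each library was left out in turn, 18 under both scalings and 19 with every gene above 0 tested, and the count called higher was 7 to 10 in all settings. Whether the replicate numbers pair the samples is not given. Deviations of same-numbered libraries correlated at 0.0253, -0.04 and 0.0279, which with so few libraries cannot settle it. With the replicate number as a block, 7 genes were lower, as without it, and no other call changed among the 10. Isx, at 0 in every library, and Rarb, above 0 only in MMK-1 replicate 1, could not be compared. The cause was not tested.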
